A study of Mus musculus with 12 samples.

Results

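The genes described here encode the machinery by which a vesicle docks at the plasma membrane and releases its content. A list of 41 such genes was named for this purpose, and 40 of them were measured, out of 18193 genes on the arrays. Each gene is represented by 1 probe set, the one with the highest mean over the 12 tumors among those that carry its symbol alone. Sytl5 had no such probe set in the annotation used. The RNA came from untreated tumors that arose in LSL-MYCN;hGFAP-Cre mice, and each tumor was measured on 1 Affymetrix MG-430_2.0 array. All tumors carry the same alleles, a MYCN transgene with a luciferase reading frame behind a floxed stop and a Cre recombinase that the human GFAP promoter drives. The mice were of mixed strain background, and the labels give no ages. The 9 tumors labelled pancreatic are numbered 1 to 5 and 9 to 12, and the 3 labelled as brain tumors are numbered 6, 7 and 8. According to the paper, head tumors in this model sit at the pituitary gland, and they are called pituitary tumors here. Some mice carried tumors at both sites, so arrays of both groups can share a mouse, and the sources used here do not say which ones do.

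Neuroendocrine cells store peptide hormones in dense-core vesicles and release them when calcium enters the cell. Rab GTPases and their effectors bring the vesicle to the membrane, priming factors make it ready for release, and SNARE proteins of vesicle and plasma membrane zip together and fuse them. Synaptotagmins sense calcium, complexins clamp and promote the SNARE complex, and Nsf with its SNAP adaptors takes the complex apart afterwards. Hormone-secreting cells of islets and of the anterior pituitary use this machinery, as do neurons for their synaptic vesicles.

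Promoter sequences from RefSeq (build GRCm38.p6, 250 bases before to 50 after the gene start) matched 31 of the 41 members. The 150 bases before the start are shown, 5′ to 3′ on the strand of the gene, for the 4 members with the largest differences between the tumor sites. Capitals mark the canonical E-box CACGTG, the element that MYC family proteins bind. Searched in the 300-base windows of all genes, it occurred in 8.09% of 27025 genes, and in 6 of the 31 members (Cadps2, Napa, Nsf, Rab27a, Sv2b and Unc13b).
Cadps (chr14:12823080-12823229, minus strand): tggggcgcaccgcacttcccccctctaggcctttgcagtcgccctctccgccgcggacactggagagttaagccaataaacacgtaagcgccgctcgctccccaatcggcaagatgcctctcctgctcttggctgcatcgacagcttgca
Sytl4 (chrX:133981813-133981962, minus strand): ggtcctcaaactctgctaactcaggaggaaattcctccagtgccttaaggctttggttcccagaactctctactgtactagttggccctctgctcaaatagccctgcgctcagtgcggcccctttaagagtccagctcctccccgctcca
Cadps2 (chr6:23839422-23839571, minus strand): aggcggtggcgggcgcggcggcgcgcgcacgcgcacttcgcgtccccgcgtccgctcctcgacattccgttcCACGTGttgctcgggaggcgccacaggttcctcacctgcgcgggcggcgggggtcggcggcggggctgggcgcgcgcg
Cplx1 (chr5:108550028-108550177, minus strand): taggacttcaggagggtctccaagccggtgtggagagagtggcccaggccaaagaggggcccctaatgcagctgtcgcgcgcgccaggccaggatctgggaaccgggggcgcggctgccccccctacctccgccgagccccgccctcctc
Cadps2 was the only one of these 4 with the E-box letters in its window. The word is its own reverse complement, so both strands were covered. A match is a description of these letters only.

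A second element was searched because it is known from neuronal genes. RE1 is the site of the repressor REST, which keeps neuronal and neuroendocrine genes silent in other cells. Its left part TTCAGCACC, on either strand, was found in 0.433% of all genes and in 3 of the 31 members, and its right part GGACAGC in 7.59% of all genes and in 4 members. Both parts were present in 0.0518% of all genes and in 2 members, Ptprn2 and Unc13a. The 30 bases around the match are shown for the 3 members with the left part, with capitals for either part.
Ptprn2 (chr12:116485719-116485748, plus strand): cggtggcGCTGTCCGGTGCTGAAgctcggc
Unc13a (chr8:71671724-71671753, minus strand): ggcGCTGTCCgcgcccccGGTGCTGAAgcg
Syn1 (chrX:20921132-20921161, minus strand): gcactgtcggaTTCAGCACCgcggtcagag
Ptprn2 and Unc13a carry both parts on the opposite strand, so the parts appear as their reverse complements. In Ptprn2 the parts adjoin, and in Unc13a other bases lie between them. The matches are thus to the 2 parts, not to an element of fixed spacing.

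The site labels were borne out by tissue genes. Of 11 measured genes of the anterior pituitary, 10 had higher signals in tumors 6 to 8 by the test described below and 0 had lower ones. Of 9 islet genes, 4 had higher signals in the pancreatic tumors and 0 had lower ones. The mean was higher in the pancreatic tumors for all 9, but 5 did not pass. Neurod1, 1 of these 5, had 12.71 in pituitary tumor 8, against at most 11.61 in the pancreatic tumors. Genes of other tissues were detected too. Those of astrocytes, oligodendrocytes and neurons were high in pituitary tumors 6 and 8, hepatocyte genes were high in pancreatic tumor 2 and to a lesser degree in tumors 3 and 4, and acinar genes were high in tumors 3 and 4 and to a lesser degree in tumor 10. These values are given beside the results they move with. In bulk tumors, fewer cells of a type and less RNA per cell cannot be told apart. All values are log2 signals as deposited. Signals of different probe sets are not comparable as amounts of RNA, and the mean signal was used only to choose the probe set of a gene, the genes above the median probe set and some of the members given by tumor. The files give no background call, and the median probe set of each array, 5.46 to 5.70, serves here as a mark below which a signal may be background.

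Of the 40 members, 7 were higher in the pituitary tumors and 0 were higher in the pancreatic tumors. The test was limma on all 45037 probe sets with Benjamini-Hochberg adjustment and a threshold of 0.05. These 7 were Sytl4, Cadps, Cadps2, Cplx1, Napb, Vamp1 and Doc2b, or 17.5% of the members. Over all 18193 genes, 4.29% were higher in the pituitary tumors and 1.63% in the pancreatic tumors, and 4.28% of the genes with a mean above the median probe set were higher in the pituitary tumors. The members were chosen with earlier results of these data known, so these shares describe the list and do not test it. The mean was higher in the pituitary tumors for 26 members and in the pancreatic tumors for 14. The median difference, pancreatic minus pituitary, was -0.77 over the members and 0.04 over all genes. For 8 members every pituitary value lay above every pancreatic value, against 5.21% of all genes, and for 0 members the reverse held, against 4.21% of all genes. The 8 were Cplx1, Cadps, Cadps2, Sytl4 and Napb, which passed the test, and Snap25, Syt1 and Nsf, which did not. With 3 pituitary arrays, members that did not pass are not shown to be alike at both sites.

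**Figure D1:**
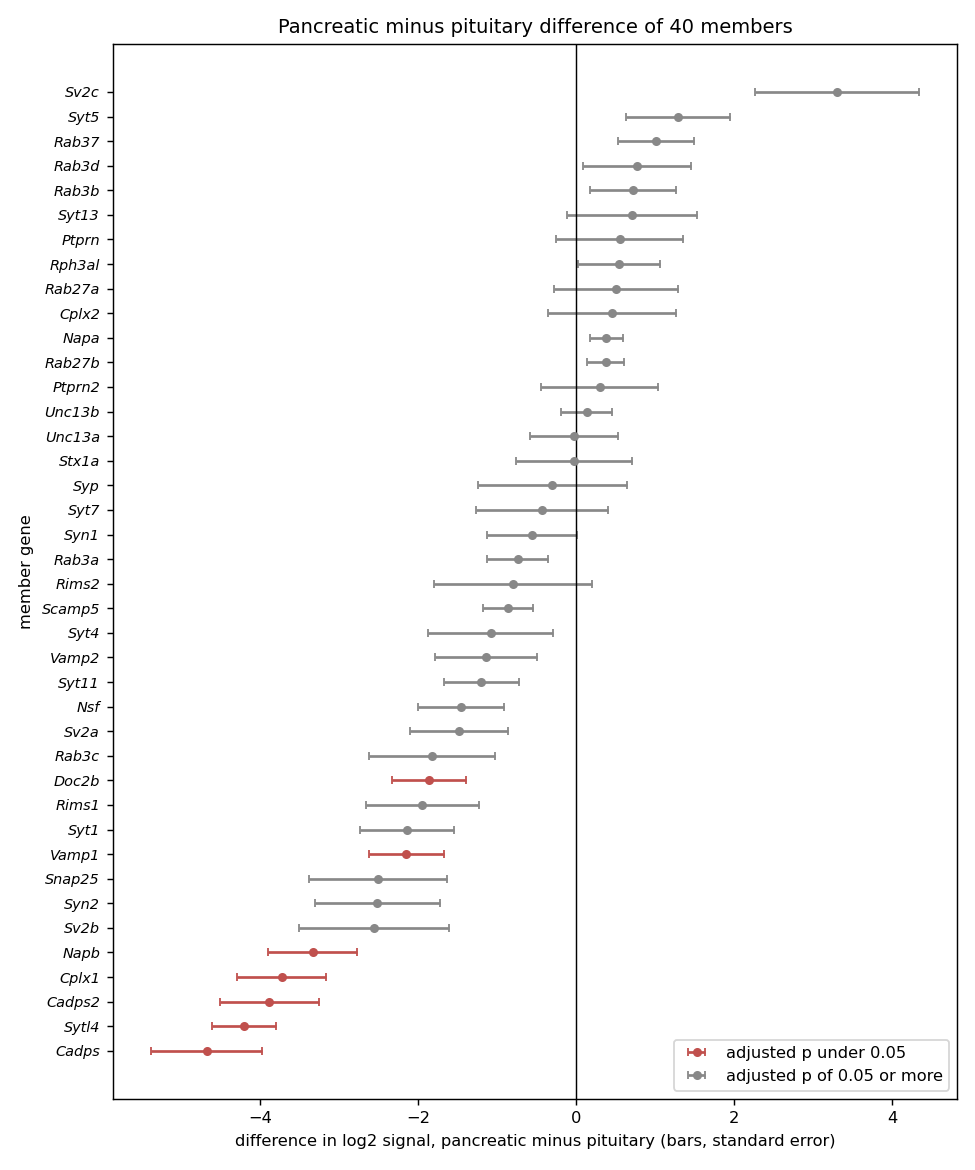
Difference in log2 signal, pancreatic minus pituitary tumors, of the 40 measured members in order of size, with points for the limma estimate and bars for its standard error. The 7 members past the threshold (red) all lie left of 0, from -1.87 for Doc2b to -4.68 for Cadps, and Sv2c lies farthest right at 3.30 without passing.

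**Figure D2:**
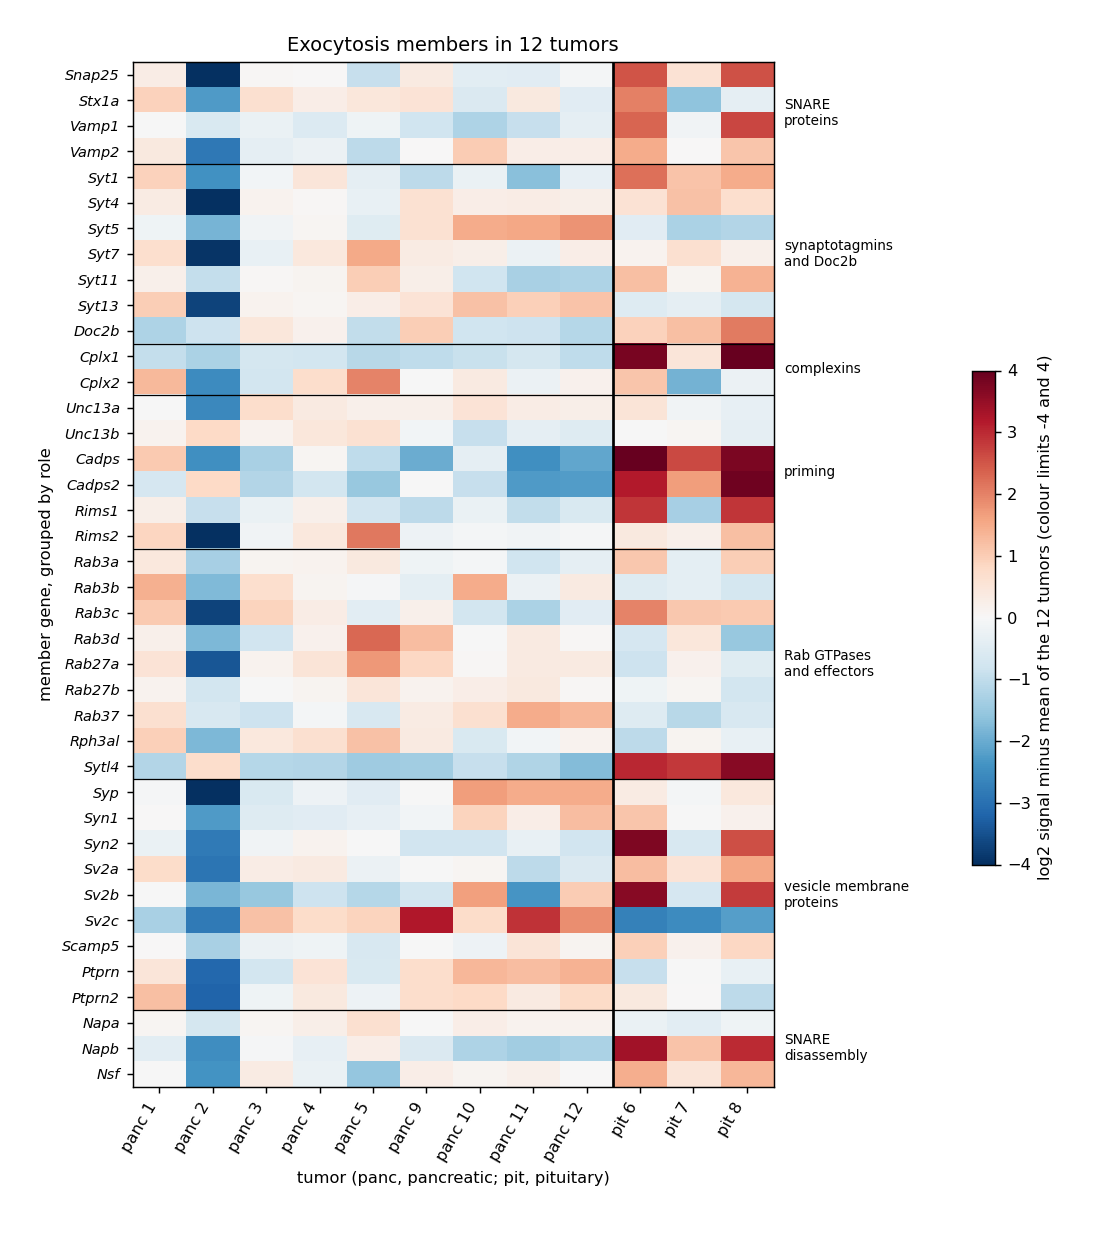
Log2 signal of each member (rows, grouped by role) in each tumor (columns), minus the mean of the gene over the 12 tumors. Pancreatic tumor 2 is the column with the most blue, Sytl4, Cadps, Cadps2, Cplx1 and Napb are red in all 3 pituitary tumors (palest for Cplx1 in tumor 7), and Rims1, Syn2 and Sv2b are red in pituitary tumors 6 and 8 and blue in tumor 7.

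Priming factors held the member with the largest difference. Cadps (CAPS1) and its paralog Cadps2 (CAPS2) are calcium-dependent activators that prime dense-core vesicles. Cadps had signals of 11.02, 9.54 and 10.67 in pituitary tumors 6, 7 and 8, and its lowest, median and highest values in the 9 pancreatic tumors were 4.43, 5.59 and 7.94. The lowest pituitary value, that of tumor 7, exceeded the highest pancreatic value, that of tumor 1. The means were 5.73 ± 1.22 (SD, n = 9) and 10.41 ± 0.77 (SD, n = 3), and the limma estimate of the difference was -4.68 ± 0.70 (SE; adjusted p = 0.00246), or 25.7-fold. In 4 of the 9 pancreatic tumors Cadps lay at or below the array median, so the size of the difference is not exact.

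Cadps2 had 10.46, 8.99 and 11.21 in pituitary tumors 6, 7 and 8 and 5.03, 6.37 and 8.12 as lowest, median and highest pancreatic values. The groups did not overlap, and the highest pancreatic value was that of tumor 2. The limma estimate was -3.89 ± 0.62 (SE; adjusted p = 0.00396), or 14.8-fold. In 2 of the 9 pancreatic tumors Cadps2 lay at or below the array median, so this size is not exact either. Both CAPS genes thus differed in the same direction, each with 1 probe set. Without pituitary tumors 6 and 8, a setting chosen after the values were seen that leaves 1 pituitary tumor, the differences were -3.81 for Cadps and -2.66 for Cadps2, and neither passed (adjusted p = 0.298 and 0.474).

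The other priming factors did not pass. Unc13a and Unc13b (Munc13-1 and Munc13-2) open syntaxin for SNARE assembly, and differed by -0.03 and 0.13 (adjusted p = 0.985 and 0.859). Rims1 and Rims2 are scaffolds that tie vesicles with Rab3 to Munc13. Rims1 had 10.06, 5.85 and 10.04 in pituitary tumors 6, 7 and 8 against 6.14 to 7.43 in the pancreatic tumors. It was high in 2 pituitary tumors and below every pancreatic tumor in tumor 7 (difference -1.95, adjusted p = 0.155). Without pituitary tumor 7 its difference of -3.35 passed (adjusted p = 0.000101). Rims2 differed by -0.80 (adjusted p = 0.698), and is described with the variation among pancreatic tumors.

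Among the Rab GTPases and their effectors, 1 of the 9 measured members passed. Sytl4 encodes granuphilin, an effector of Rab27 and Rab3 that docks dense-core granules at the plasma membrane in islet and pituitary cells. It had 8.41, 8.23 and 9.04 in pituitary tumors 6, 7 and 8. In the pancreatic tumors it had 3.66, 4.22 and 6.10 as lowest, median and highest values. Tumor 2 had the highest pancreatic value, and the other 8 lay between 3.66 and 4.47, at or below the array median. The limma estimate was -4.21 ± 0.40 (SE; adjusted p = 8.34e-05), or 18.5-fold, and its size is not exact since the pancreatic values may be background. Pituitary tumor 7 had the lowest of the 3 pituitary values, 2.13 above the highest pancreatic value. It passed under each alternative in which it was tested, which leaves out the filter at the median probe set that removed it. A further probe set of Sytl4 had group means of 3.62 and 3.57, below the array medians at both sites.

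The Rab GTPases themselves did not pass. Rab3a is the main Rab3 of synaptic and secretory vesicles. It had 12.28, 10.82 and 12.19 in pituitary tumors 6, 7 and 8 and 9.88, 11.12 and 11.61 as lowest, median and highest pancreatic values, which overlap (difference -0.74, adjusted p = 0.322). Rab3b, Rab3c and Rab3d are its isoforms, with differences of 0.72, -1.83 and 0.77 (adjusted p = 0.504, 0.231 and 0.573). Rab27a and Rab27b recruit granuphilin and related effectors to granules, and differed by 0.50 and 0.37 (adjusted p = 0.767 and 0.418). The probe sets of Rab27b disagreed, and the mean of its 4 probe sets differed by -0.92 (adjusted p = 0.18). Rab37, a Rab of secretory granules, and Rph3al (Noc2), an effector of Rab3 and Rab27 in endocrine cells, differed by 1.01 and 0.54 (adjusted p = 0.273 and 0.607). The mean was higher in the pancreatic tumors for 6 of the 9 members of this group.

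Complexins divided by gene. Cplx1, a complexin of neurons and endocrine cells, had 12.74, 9.41 and 13.03 in pituitary tumors 6, 7 and 8. The 9 pancreatic tumors lay within 7.67 to 8.23, the narrowest spread of any member (SD 0.19). All pituitary values were higher, and tumor 7 was nearer to the pancreatic tumors than to tumors 6 and 8. The pituitary values had an SD of 2.01. The fit assumes the same spread at both sites, so its SE and p-value can be too small here. The limma estimate was -3.73 ± 0.56 (SE; adjusted p = 0.00254), or 13.3-fold. With pituitary tumors 6 and 8 left out it was -1.42 and still passed (adjusted p = 0.0336), a fit in which tumor 7 alone stands for its group and is assumed to vary like the others. Of its 3 probe sets 2 passed, and the third had group means of 7.09 and 7.25. Cplx2, which serves the same role, had 11.45, 8.47 and 10.12 in the pituitary and 7.82 to 12.34 in the pancreatic tumors (difference 0.45, adjusted p = 0.798).

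Napb, or beta-SNAP, is the form of the SNAP adaptor known mainly from brain, and recruits Nsf to spent SNARE complexes. It had 11.93, 9.73 and 11.57 in pituitary tumors 6, 7 and 8 and 6.10, 7.99 and 8.84 as lowest, median and highest pancreatic values. The groups did not overlap. The limma estimate was -3.34 ± 0.57 (SE; adjusted p = 0.00558), or 10.1-fold. Of its 6 probe sets 5 passed, with differences of -3.67 to -3.15, and the other lay below the array medians. Without pancreatic tumors 10, 11 and 12 the difference was -3.10 (adjusted p = 0.0575), and without pituitary tumors 6 and 8 it was -1.99 (adjusted p = 0.64). Napa, the widely expressed alpha form, differed by 0.38 (adjusted p = 0.354), and was among the steadiest members with an SD of 0.35 in the pancreatic tumors. Nsf, the ATPase itself, had 11.71, 10.73 and 11.57 in the pituitary tumors against 7.86 to 10.59 in the pancreatic tumors (difference -1.46, adjusted p = 0.157). Its groups did not overlap, and the gap between them was 0.15.

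Of the 4 SNARE proteins, Vamp1 passed. Vamp1 and Vamp2 are the vesicle SNAREs (synaptobrevins), and Snap25 and Stx1a are their partners on the plasma membrane. Vamp1 had 8.29, 5.82 and 8.63 in pituitary tumors 6, 7 and 8 and 4.74, 5.42 and 5.96 as lowest, median and highest pancreatic values. Tumors 6 and 8 were high, while tumor 7 lay within the pancreatic range. The SD was 0.39 in the pancreatic and 1.54 in the pituitary tumors, so here too the SE and p-value can be too small. The limma estimate was -2.16 ± 0.48 (SE; adjusted p = 0.0245), or 4.45-fold. Leaving out pituitary tumor 6 or 8 ended the call (adjusted p = 0.159 and 0.158), and without both the difference was -0.39 (adjusted p = 1). In 5 of the 9 pancreatic tumors it lay at or below the array median, so the fold is not exact, and its other probe set differed by -0.16 (adjusted p = 0.433).

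Snap25 had 13.66, 11.72 and 13.67 in the pituitary tumors. In the pancreatic tumors it had 6.65, 11.05 and 11.49, and the lowest of these, tumor 2, stood far from the others, which began at 10.22. The groups did not overlap, and the difference of -2.51 did not pass (adjusted p = 0.133 from limma). Without pancreatic tumor 2 it was -2.03 and passed (adjusted p = 0.0138). Stx1a and Vamp2 differed by -0.03 and -1.14 (adjusted p = 0.986 and 0.359). Stx1a had 10.69, 7.08 and 8.32 in pituitary tumors 6, 7 and 8, so that the 3 tumors spread more widely (SD 1.84) than the pancreatic tumors (SD 0.98).

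The synaptotagmin group held 6 synaptotagmins and Doc2b, and 1 of the 7 passed. Doc2b, a high-affinity C2 domain protein of hormone release, had 7.03, 7.33 and 8.18 in pituitary tumors 6, 7 and 8 and 4.87, 5.30 and 7.11 as lowest, median and highest pancreatic values. Pancreatic tumor 9 overlapped with the pituitary tumors. The limma estimate of -1.87 ± 0.47 (SE; adjusted p = 0.0437) lay close to the threshold and lost its call without any 1 of 10 of the 12 tumors (adjusted p = 0.0508 to 0.235). Leaving out pancreatic tumor 3 or 9 kept it. In 6 pancreatic tumors Doc2b was at or below the array median, so the size of the difference is not exact, and its other probe set differed by 0.02 (adjusted p = 0.964).

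Syt1, the fast calcium sensor of synaptic release, had 12.84, 11.76 and 12.12 in the pituitary tumors and 8.21 to 11.57 in the pancreatic tumors, without overlap, and its difference of -2.14 had an adjusted p of 0.0618. It passed without pancreatic tumor 1 or 2 (adjusted p = 0.0362 and 0.0369). Syt7, a slow, high-affinity sensor of islet and other endocrine cells, had 11.36, 11.86 and 11.43 in pituitary tumors 6, 7 and 8 and 7.31, 11.47 and 12.73 as lowest, median and highest pancreatic values (difference -0.43, adjusted p = 0.811). Apart from pancreatic tumor 2, the sites overlapped closely. Syt4, a synaptotagmin that modulates dense-core vesicle release, had 12.05, 12.64 and 12.14 in the pituitary tumors and 7.41, 11.71 and 12.08 as lowest, median and highest pancreatic values (difference -1.08, adjusted p = 0.485). Its 8 pancreatic tumors other than tumor 2 lay within 11.17 to 12.08, against 12.05 to 12.64 in the pituitary tumors. Syt13, an atypical synaptotagmin of endocrine cells, had 9.94, 10.11 and 9.77 in the pituitary and 6.78, 11.03 and 11.65 in the pancreatic tumors (difference 0.70, adjusted p = 0.678). Every pancreatic tumor except tumor 2 exceeded the pituitary tumors, and without tumor 2 its difference of 1.19 passed (adjusted p = 0.0236). Syt5, a synaptotagmin of dense-core vesicles, and Syt11, which does not bind calcium, differed by 1.29 and -1.20 (adjusted p = 0.308 and 0.188).

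None of the 9 vesicle membrane proteins passed. Sv2a, Sv2b and Sv2c are transporter-like glycoproteins of secretory and synaptic vesicles. Sv2c had 4.13, 4.30 and 4.62 in pituitary tumors 6, 7 and 8, all below the array median, and 4.00, 7.70 and 10.04 as lowest, median and highest pancreatic values. Apart from pancreatic tumor 2, each pancreatic tumor was above the pituitary tumors. The difference of 3.30 (standard error 1.04) missed the threshold (adjusted p = 0.0983 from limma), and passed without pancreatic tumor 2 (3.76, adjusted p = 0.0154). Sv2b leaned the other way, with 10.61, 6.28 and 9.74 in the pituitary and 4.59 to 8.59 in the pancreatic tumors (difference -2.56, adjusted p = 0.157), and Sv2a differed by -1.49 (adjusted p = 0.207). Sv2b passed without pituitary tumor 7 (-3.86, adjusted p = 0.0272). With array weights, both Sv2c (3.61, adjusted p = 0.0166) and Sv2b (-3.14, adjusted p = 0.0255) passed.

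Ptprn (IA-2) and Ptprn2 (phogrin) are membrane proteins of dense-core vesicles. Ptprn had 10.55, 11.46 and 11.16 in pituitary tumors 6, 7 and 8 and 8.33, 12.01 and 12.85 as lowest, median and highest pancreatic values (difference 0.55, adjusted p = 0.746). Ptprn2 had 11.59, 11.23 and 10.16 in the pituitary tumors and 8.02, 11.59 and 12.43 in the pancreatic tumors (difference 0.29, adjusted p = 0.861). Both overlapped between the sites. Syp, synaptophysin, is a common marker of neuroendocrine tumors. It had 9.49, 9.10 and 9.59 in the pituitary and 5.16, 9.11 and 10.83 in the pancreatic tumors (difference -0.30, adjusted p = 0.889). Syn1 and Syn2 are synapsins, which tether synaptic vesicles, and differed by -0.57 and -2.52 (adjusted p = 0.622 and 0.097). Syn2 had 11.79, 7.42 and 10.63 in pituitary tumors 6, 7 and 8, high in 2 of them and within the pancreatic range in tumor 7. It passed without tumor 7 (-3.78, adjusted p = 0.00396) and with array weights (-2.88, adjusted p = 0.0159). Scamp5, a secretory carrier protein, differed by -0.87 (adjusted p = 0.149).

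**Figure D3:**
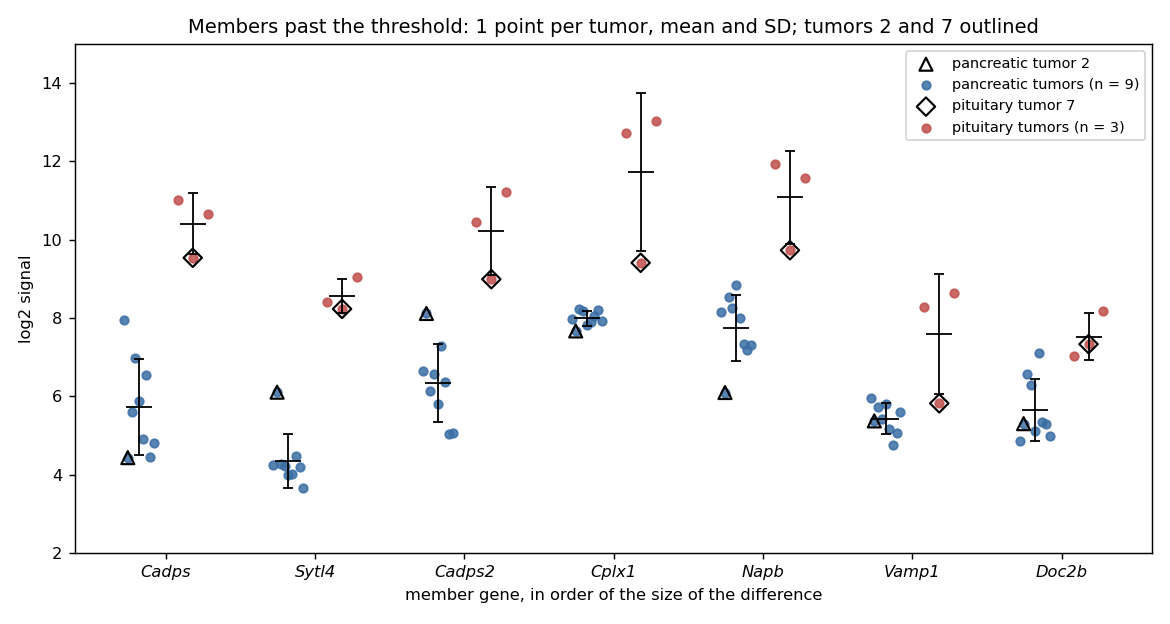
Log2 signal of the 7 members past the threshold in each pancreatic (blue, n = 9) and pituitary tumor (red, n = 3), with the mean and SD of each group. Pituitary tumor 7 (diamond) lies nearest the pancreatic tumors for Cadps, Sytl4, Cadps2, Cplx1, Napb and Vamp1, and pancreatic tumor 2 (triangle) has the highest pancreatic value of Sytl4 and Cadps2 and the lowest of Cplx1, Cadps and Napb.

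The 3 pituitary tumors were not alike. Tumor 7 had the lowest value of the 3 for 25 of the 40 members and the highest for 10, where it was lowest for 27.5% and highest for 45.9% of all genes. For 8 members it lay more than 2 below the mean of tumors 6 and 8, which held for 2.91% of all genes. These were Rims1, Sv2b, Syn2, Cplx1, Vamp1, Stx1a, Cplx2 and Napb. Tumor 7 lay within the pancreatic range for 27 members, above it for 11 and below it for 2 (Rims1 and Rab37). Over all genes it lay within that range for 74.3%, above it for 15.3% and below it for 10.5%. Tumors 6 and 8 lay above the range for 19 members each, against 16.4% and 15.4% of all genes. The 11 members for which tumor 7 exceeded every pancreatic tumor were Sytl4, Cadps, Cplx1, Napb, Cadps2, Syt4, Snap25, Doc2b, Syt1, Nsf and Rab3c.

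Genes of brain tissue also differed between the pituitary tumors. The median gap to the pancreatic median over 11 neuronal genes was 3.10 in tumor 6, 3.10 in tumor 8 and -0.00063 in tumor 7. Over 7 astrocyte genes it was 4.32, 4.63 and 1.01, and over 6 oligodendrocyte genes 2.80, 2.53 and -0.16, in the order 6, 8 and 7. Over 11 anterior pituitary genes the order was reversed, with 3.952 in tumor 6, 3.185 in tumor 8 and 6.217 in tumor 7. Cga had 11.62, 11.04 and 14.71 and Tshb 9.31, 8.20 and 12.52 in that order. Gh (14.65, 14.87 and 14.80) and Prl (15.10, 14.10 and 15.04) were not highest in tumor 7. In tumor 7, 3 of the 11 neuronal, 2 of the 7 astrocyte and 4 of the 6 oligodendrocyte genes lay at or below the array median, as against 0, 0 and 0 in tumor 6 and 0, 0 and 1 in tumor 8. The summed signal of the lists, on the log2 scale, ranged over the pituitary tumors from 11.77 to 14.33 for neurons, 11.25 to 15.16 for astrocytes and 10.31 to 13.00 for oligodendrocytes. Over the pancreatic tumors it ranged from 8.89 to 12.78, 9.35 to 12.46 and 9.63 to 10.84. Camk2a, a kinase of forebrain neurons, had 12.18, 6.00 and 9.37 in tumors 6, 7 and 8, and Gad1, which makes the transmitter GABA, had 7.66, 4.63 and 8.88. The mean was higher in the pituitary tumors for 10 of the 11 neuronal and 5 of the 6 oligodendrocyte genes. The exceptions were Nefm and Mbp, and Mbp was lower in tumors 6 (8.97) and 8 than in tumor 7 (9.26). Several neuronal genes were also high in the pancreatic tumors, with medians of 10.34 for Map2, 10.85 for Nefm, 9.59 for Dlg4 and 8.36 for Rbfox3. Pancreatic tumor 2 had the lowest pancreatic value for 8 of the 11. The neuronal list is thus not a measure of brain tissue alone. Slc17a6, a vesicular glutamate transporter, had 9.52, 8.53 and 9.39 in tumors 6, 7 and 8 against 4.04 to 5.41 in the pancreatic tumors. In tumor 7, 2 of the 11 neuronal genes (Slc17a6 and Tubb3), 1 of the 7 astrocyte genes (Slc1a2) and 0 of the 6 oligodendrocyte genes exceeded every pancreatic tumor. Tubb3, a neuronal tubulin, had 8.87 there against at most 7.58 in the pancreatic tumors, and Slc1a2, an astrocyte glutamate transporter, had 9.26 against at most 7.14. Aqp4, an astrocyte water channel, had 7.01 in tumor 7, within a pancreatic range whose median was 3.35. It lay within that range only through pancreatic tumor 2 (7.61), and the other pancreatic tumors had 2.91 to 3.66. Pancreatic tumor 2 also set the highest pancreatic Slc1a2 value, with at most 4.77 in the others. The same tumor set the highest pancreatic astrocyte sum, with at most 11.33 in the others. That sum was mostly 1 gene, Aldh1l1, with 12.175 in tumor 2. Aldh1l1 also had 8.40 and 8.79 in tumors 3 and 4, where hepatocyte genes were high too, and a pancreatic median of 5.255. Brain genes were thus lower in tumor 7 than in tumors 6 and 8 as lists, but not at the pancreatic level for each gene. The parts of brain and of pituitary tissue in the members' differences were not tested.

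**Figure D4:**
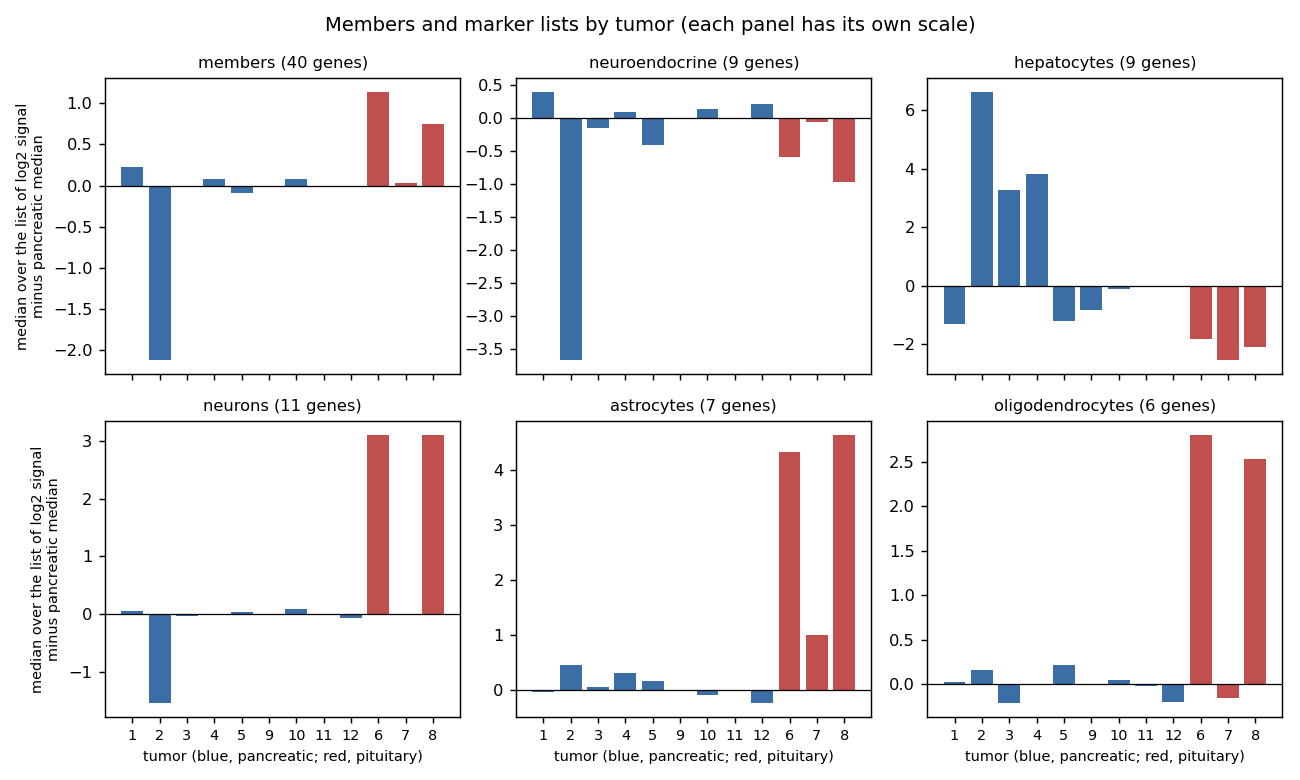
Median over the genes of a list of the log2 signal minus the median of the 9 pancreatic tumors, for the members and 5 marker lists, 1 bar per tumor, pancreatic in blue and pituitary in red. The members reach 1.14 and 0.75 in pituitary tumors 6 and 8, 0.03 in tumor 7 and -2.12 in pancreatic tumor 2, where neuroendocrine genes are at -3.67 and hepatocyte genes at 6.63.

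Among the pancreatic tumors the members varied more than the typical gene. Their median SD over the 9 tumors was 0.99, against 0.43 over all genes and 0.54 over genes with a mean above the median probe set. Much of this spread went with tumor 2, and without it the median SD was 0.59 over the members, 0.38 over all genes and 0.46 over those above the median probe set. The 5 members with the largest SD over the 9 tumors were Sv2c (1.90), Rims2 (1.82), Syp (1.73), Syt7 (1.52) and Syt13 (1.51). Without tumor 2 they had 1.42, 0.80, 0.96, 0.56 and 0.45, so that the spread of Sv2c rested least on that tumor. The members with the smallest SD over the 9 tumors were Cplx1, Rab27b, Napa, Vamp1 and Rims1, with SDs of 0.19, 0.35, 0.35, 0.39 and 0.50. Vamp1 lay at or below the array median in 5 of the 9, so its small SD may be that of background.

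Tumor 2 had the lowest pancreatic value for 31 of the 40 members, or 77.5%, where this held for 19.8% of all genes. The median gap of the members to the median of the other 8 pancreatic tumors was -2.20, and 0.03 over all genes. Rims2, the scaffold of the active zone, had 4.44 in tumor 2 and 8.85 to 11.17 in the others. Syp had 5.16 against 8.57 to 10.83, and Syt7 7.31 against 10.93 to 12.73. All 3 were thus lower in tumor 2 than in any other tumor of either site. The vesicle membrane proteins had a median gap of -2.97, the SNARE proteins -2.84 and the synaptotagmin group -2.22. Unc13b, Cadps2 and Sytl4 went the other way and were highest in tumor 2, at 8.53, 8.12 and 6.10.

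Markers of other cells moved with these values in tumor 2. All 9 measured neuroendocrine genes were lowest there, with a median gap of -3.71 to the other pancreatic tumors, and the granule protein Chga had 9.58 against 11.78 to 13.95. All 9 measured hepatocyte genes, a list added after the values were seen, were highest there, with a median gap of 7.22. Albumin (Alb) had 15.02 in tumor 2, 13.42 and 13.65 in tumors 3 and 4, and 6.22 to 12.28 in the other pancreatic tumors. The summed hepatocyte signal ranged from 12.62 to 17.34 in the pancreatic and from 10.12 to 14.70 in the pituitary tumors. The highest pituitary value, that of tumor 8, was nearly all Ttr, transthyretin (14.69), and 8 of the 9 genes lay at or below the array median there. Ttr also made up most of the sum in pancreatic tumors 1, 5, 9 and 10. It had 12.90, 13.91, 12.40 and 13.22 there, beside sums of 12.98, 13.99, 12.62 and 13.34. Tumors 3 and 4 had median gaps of 0.00 and 0.08 over the members beside 3.29 and 3.83 over the hepatocyte genes and 4.73 and 4.01 over 9 acinar genes, whose summed signal ranged from 9.11 to 16.04 in the pancreatic and from 9.62 to 10.07 in the pituitary tumors. The part of liver tissue in the members' low values in tumor 2 was not tested. Without tumor 2, 8 members were higher in the pituitary and 2 in the pancreatic tumors, where 5.36% and 2.76% of all genes were. The gains were Snap25 and Syt1 toward pituitary tumors and Syt13 and Sv2c toward pancreatic tumors, and Doc2b lost its call.

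Pancreatic tumors 10, 11 and 12 had lower array means, 5.98 to 5.99, than the other 9 tumors, 6.07 to 6.11. For 4 members all 3 exceeded the other 6 pancreatic tumors, and for 1 member all 3 lay below them. Over all genes these shares were 5.86% and 7.59%. The 4 were Syp (10.66 to 10.83 against at most 9.15), Ptprn (12.70 to 12.85 against at most 12.18), Syt5 (9.28 to 9.57 against at most 8.40) and Syn1 (8.41 to 9.38 against at most 8.15). The 1 below was Unc13b. The 3 tumors were singled out after their array means were seen, so no test is given. Tumor 10 also had the largest leukocyte gap of the 12 tumors, 1.26 over 7 genes, and an acinar gap of 2.27 over 9 genes, against 0.15 and 0.00 for the acinar genes in tumors 11 and 12. Their part in these values was not tested. Without tumors 10, 11 and 12, 4 members, Cplx1, Cadps, Cadps2 and Sytl4, were higher in the pituitary tumors.

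A wider list of 90 other exocytosis genes was examined beside the members, and 85 of them were measured. Of these 7 were higher in the pituitary tumors (8.24%, against 4.29% of all genes), 1 was higher in the pancreatic tumors (1.18%, against 1.63%) and 77 did not pass. Their median difference was -0.36, against 0.04 over all genes. This list too was chosen with earlier results of these data known. Priming and active zone genes held 3 of the 7. Unc13c (Munc13-3), a paralog of Unc13a and Unc13b known from the cerebellum, had 8.66, 6.23 and 10.69 in pituitary tumors 6, 7 and 8. In the pancreatic tumors it had 3.31, 3.81 and 4.55 as lowest, median and highest values, all below the array medians. The limma estimate was -4.66 ± 0.65 (SE; adjusted p = 0.00139), and its size is not exact for that reason. The members Unc13a and Unc13b differed by -0.03 and 0.13.

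Ppfia2 (liprin-alpha-2) and Erc2 are scaffolds of the active zone. Ppfia2 had 8.10, 7.42 and 7.66 in pituitary tumors 6, 7 and 8 and 3.25, 4.62 and 6.62 as lowest, median and highest pancreatic values (difference -2.81, adjusted p = 0.0135). Erc2 had 10.35, 8.95 and 9.52 and 5.13, 7.38 and 8.32 in the same order (difference -2.63, adjusted p = 0.0272). Neither overlapped between the sites. Syt17, a C2 domain protein of the synaptotagmin family, had 9.02, 8.19 and 6.53 in the pituitary tumors, lowest in tumor 8, and 4.81, 5.59 and 6.28 in the pancreatic tumors (difference -2.37, adjusted p = 0.00941). Syn3, the third synapsin, had 7.20, 6.73 and 6.90 and 3.40, 4.33 and 6.05 (difference -2.37, adjusted p = 0.011), with tumor 7 close to tumors 6 and 8. Ppfia2 lay at or below the array median in 6, Syn3 in 8 and Syt17 in 3 of the 9 pancreatic tumors, so these sizes are not exact. With the mean over a gene's probe sets the differences were -1.41 for Ppfia2, -0.88 for Syn3 and -1.84 for Syt17, and each still passed. Unc13c kept its call without any 1 tumor. Ppfia2, Erc2 and Syn3 lost theirs without pituitary tumor 6 (adjusted p = 0.0738 to 0.166) or 8 (0.0539 to 0.109), and Syt17 without tumor 6 (0.0664). Stxbp4 and Cplx3 also passed, with differences of -1.91 and -0.64. Stxbp4 lost its call without any 1 of the pituitary tumors (adjusted p = 0.097 to 0.162) or without pancreatic tumor 1, 4, 11 or 12 (0.0502 to 0.0701). Cplx3 lay at or below the array median in all 12 tumors. Its call was lost under median centring and quantile normalization (adjusted p = 0.0639 and 0.0594), without pituitary tumor 6 or 8 (0.207 and 0.189), and without pancreatic tumor 1, 4, 9, 11 or 12 (0.0551 to 0.0679). Exoc6, a subunit of the exocyst that tethers vesicles before fusion, was higher in the pancreatic tumors. It had 8.79, 8.35 and 8.32 in pituitary tumors 6, 7 and 8 and 8.82, 10.49 and 10.98 as lowest, median and highest pancreatic values, and the limma estimate of the difference was 1.69 ± 0.40 (SE; adjusted p = 0.0336). Its call was lost without any 1 of the pituitary tumors (adjusted p = 0.0888 to 0.156) or without pancreatic tumor 3, 4, 9, 10 or 12 (0.0528 to 0.0621).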

How the data were processed

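RNA of 9 pancreatic and 3 pituitary tumors was hybridized to Affymetrix MG-430_2.0 arrays, 1 array per tumor. The values that the authors deposited are log2 signals of single probe sets. Partek Genomics Suite, whose version the sources used here do not give, is named for normalization and R for a further analysis, and it is left unsaid which one the table comes from. No normalization was added. Each of the 12 columns was mapped to its tumor by the labels, and no 2 arrays held identical values. The depth of an array cannot be counted, and the number of arrays limits the precision. The labels do not say which tumors came from which mouse. The p-values treat the 12 tumors as independent, which may not hold for tumors that share a mouse.

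Of 45101 probe sets 64 controls were left out, and 34945 of the other 45037 carry 1 gene symbol in the platform annotation, 932 several and 9160 none in the table used. Entrez identifiers paired 34741 of the first kind with RefSeq, and 0 symbols differed. The probe set with the highest mean over the 12 tumors stood for a gene.

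In R 4.3.3 a linear model of site was fitted to all 45037 probe sets (limma 3.58.1, lmFit and eBayes). For each probe set the same variance was assumed at both sites. Where the pituitary tumors spread more widely than the pancreatic tumors, the SE and p-value can be too small. Adjustment was after Benjamini-Hochberg, and the threshold was 0.05. A difference is the pancreatic minus the pituitary mean (log2). On simulated data of this comparison over 45037 probe sets, 24 of 50 changed probe sets were recovered at a log2 difference of 1. At 2, 4 and 6 it was 40, 49 and 48 of 50, and 9 unchanged probe sets were called. The simulated noise was normal, independent between probe sets and tumors and of the same SD at both sites. Single tumors that stand apart over many genes were thus not modelled, and the recovery in the real data can differ. Tables and figures were made with Python 3.11.15, numpy 2.4.6, pandas 2.3.3 and matplotlib 3.10.9.

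The members, the wider list of exocytosis genes and the marker lists were chosen with earlier results of these data known, and the hepatocyte list was added after the values were seen. Every member is accounted for. Values by tumor are given for members past the threshold, the 5 with the highest mean over the 12 tumors (Syt4, Ptprn, Syt7, Ptprn2 and Rab3a) and the 5 with the largest SD in the pancreatic tumors, and for up to 5 other exocytosis genes past the threshold in each direction. Other genes given by tumor were chosen after their values were seen. Alternatives were quantile normalization, median centring, a trended and robust variance, array weights, a filter at the median probe set, the mean over a gene's probe sets and each tumor left out in turn, and 2 chosen after the values were seen, without pituitary tumors 6 and 8 and without pancreatic tumors 10, 11 and 12. Arrays of normal pancreas were not analysed here.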

Additional observations from a re-analysis of the deposited data

Results flagged for a closer look

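In the 9 pancreatic tumors, a value standing apart from the rest was sought for each member with Dixon's test at the 5% level, which compares the gap to the nearest value with the range. The test by chance picks about 1 in 20 genes. It picked 18 of the 40 members, and in all 18 the value was that of pancreatic tumor 2. Over all genes it picked 16.2%, and 3.66% with tumor 2 as the lowest. In 17 members tumor 2 was the lowest, and the ratio of gap to range was 0.805 for Syt4, 0.778 for Unc13a, 0.775 for Syt13, 0.738 for Snap25, 0.692 for Syn2, 0.68 for Ptprn2. It was 0.669 for Rab27a, 0.667 for Syt7, 0.655 for Rims2, 0.602 for Syp, 0.585 for Rab27b, 0.533 for Ptprn. It was 0.529 for Stx1a, 0.521 for Napa, 0.515 for Rab3c, 0.513 for Sv2a and 0.496 for Syn1. In Sytl4 tumor 2 was the highest, with a ratio of 0.668. The levels of neuroendocrine and hepatocyte genes in the same tumor are given above, and their part in these values was not tested.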

How the results depend on the processing

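The count of 7 members higher in pituitary tumors was 6 or 7 under quantile normalization, median centring, the trended and robust variance, the filter at the median probe set and the mean of all probe sets, and 13 with array weights, with 1 member then higher in pancreatic tumors. With 1 tumor left out at a time it was 5 to 9, with 0 to 2 members higher in pancreatic tumors. It was 4 without pancreatic tumors 10, 11 and 12 and 2 without pituitary tumors 6 and 8. Cplx1, Cadps, Cadps2, Sytl4 and Napb kept their calls when any 1 tumor was left out.

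Of the other exocytosis genes, 7 were higher in pituitary and 1 in pancreatic tumors. These counts were 21 and 5 with array weights, 1 to 13 and 0 to 1 with 1 tumor left out, 3 and 0 without pancreatic tumors 10, 11 and 12, and 2 and 0 without pituitary tumors 6 and 8. The pancreatic count was 3 with the mean of all probe sets and 2 after quantile normalization. Of all probe sets, 1552 were higher in pituitary and 533 in pancreatic tumors. They were 3179 and 1849 with array weights, 656 to 2000 and 172 to 886 with 1 tumor left out, 571 and 214 without pancreatic tumors 10, 11 and 12, and 488 and 61 without pituitary tumors 6 and 8, and the first was 926 with the filter, which tests fewer probe sets. The 2 last settings hold fewer tumors. The cause of the other shifts was not tested.

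No member past the threshold changed its direction. The difference of members that did not pass turned its sign 30 times, to Cplx2 -0.32 (without pituitary tumor 7), Ptprn -0.042, Stx1a 0.069 (without pancreatic tumors 10, 11 and 12), Ptprn2 -0.12, Unc13b -0.0082 (without pituitary tumor 8), Rab27a -0.058, Rab3a 0.20, Rab3d -0.26, Rims1 0.86, Stx1a 1.59, Sv2b 0.040, Syn2 0.013, Unc13a 0.12, Unc13b -0.055 (without pituitary tumors 6 and 8), Rab27b -0.92, Stx1a 0.095, Syt7 0.17 (mean over a gene's probe sets), Stx1a 0.0088, Unc13a 0.014 (median centring), Stx1a 0.12, Unc13a 0.11 (quantile normalization), Stx1a 0.97, Unc13a 0.22 (without pituitary tumor 6), Stx1a 0.038 (without pancreatic tumor 10), Stx1a 0.023 (without pancreatic tumor 12), Stx1a 0.25, Syp 0.19, Syt7 0.042, Unc13a 0.29 (without pancreatic tumor 2), Unc13a 0.049 (array weights). None of these passed. With 1 tumor left out at a time, the differences of these members ran from -0.32 to 1.17 for Cplx2, -0.12 to 0.70 for Ptprn2, -0.84 to 0.97 for Stx1a, -0.52 to 0.19 for Syp, -0.64 to 0.042 for Syt7, -0.21 to 0.29 for Unc13a and -0.0082 to 0.25 for Unc13b.

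No paired analysis was possible because the labels do not link tumors to mice, and the tumor numbers are a running count in which the 2 sites share none.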
